A study of Mus musculus with 4 samples.

Results

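The regions described here are the stretches of open chromatin called as peaks only in the library labelled CKO of a mouse lung injury study. Members are autosomal peaks of that library that overlap no peak of the Control library by 1 base or more and that hold at least 50 counts, where a count is an end of a DNA fragment cut by the transposase. Counts were summed over barcodes with 500 to 25000 RNA molecules (UMIs) and under 20% mitochondrial RNA. The rule chose 5928 peaks, 7.87% of the 75280 autosomal CKO peaks with at least 50 counts. The remaining 69352 overlap a Control peak and are called shared peaks below.

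The study sorted GFP+ cells from lungs of male mice 8 days after bleomycin, which injures the lining of the alveoli. Control mice carried SftpcCreERT2 and Rosa26mTmG, and CKO mice carried both plus the floxed allele written IPF/F in the labels. SftpcCreERT2 is a Cre recombinase made active by tamoxifen and driven by the surfactant gene Sftpc, and Rosa26mTmG turns on GFP in cells where Cre has acted. The series title names the prostaglandin I2 receptor, which is encoded by Ptgir. Each genotype gave 1 joint library of RNA and open chromatin from the same nuclei, so the genotypes have no replicates and no difference between them was tested. How many mice entered a library is not given in the sources used here.

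Open chromatin marks promoters and enhancers that a cell type can use, so a nucleus of one lineage opens regions that are closed in others. Alveolar type 2 (AT2) cells make surfactant and can become flat, gas-exchanging AT1 cells after injury. Leukocytes such as neutrophils, macrophages and T cells enter the injured lung and carry enhancers of their own lineages. A peak caller finds a region only where enough nuclei of a library contribute fragments.

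The kept nuclei numbered 5937 in the CKO library and 4599 in the Control library, with median peak counts of 2008 and 1038 per nucleus, and the kept sets shared 37 barcodes. The CKO library held 19162680 kept peak counts and the Control library 11472017. Over all barcodes in the files the order was reversed, with 37365247 peak counts in 10925 CKO barcodes and 47307986 in 13569 Control barcodes. Cell classes were named in kept nuclei only. RNA clusters of the CKO library went against the sort label in part. By their markers, 1995 of 5937 nuclei (33.6%) were leukocyte-like: 776 neutrophil-like, 497 macrophage and monocyte-like, 481 T and NK cell-like, 130 dendritic-like and 111 B lineage-like. When both libraries were clustered together, leukocyte-like nuclei were 2018 of the CKO library (34.0%) and 204 of the Control library (4.44%), where 3 were neutrophil-like and 0 dendritic-like. The other CKO nuclei were 1853 AT2-like, 771 of a cluster called cluster 3 here, 190 endothelial-like, 78 ciliated-like, 76 fibroblast-like and 16 club and secretory-like nuclei, and 958 of cluster 1, left unnamed because its best list, the transitional one, scored 0.137 where 0.3 was required. Cluster 3 scored highest on the AT1 list (1.17) and next on the transitional list (0.792), but its 10 leading genes held 0 AT1 markers and 1 transitional marker, Itgb6. In joint clusters, 387 of its nuclei were in the AT1-scored cluster, 202 in the transitional one and 149 in the AT2-like one. It therefore goes by its number. Alveolar or unnamed nuclei below are those of the AT2-like, AT1-scored, transitional and unnamed clusters. RNA of Sftpb, a surfactant gene, was at 5292 CPM (counts scaled to a common total per class) in AT2-like nuclei and at 1444 to 2873 CPM in the leukocyte classes, and the part of free RNA or of doublets in that level was not tested. Ptgir had 8 UMIs in kept CKO nuclei and 1 in Control nuclei, too few to check the deletion.

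The promoters of 7 genes that lie inside CKO-only peaks are shown. They are the leading promoter windows of the leukocyte and endothelial classes, plus Nlrp1b, which led the leukocyte classes among windows with PU.1 letters. Each line gives the 250 bases before the RefSeq gene start (GRCm38.p6), 5′ to 3′ on the gene's strand. Gzmb encodes a granule protease of cytotoxic lymphocytes (chr14:56262335-56262584, minus strand). Pram1 is an adaptor of myeloid cells (chr17:33637845-33638094, plus strand). Clec7a is the fungal glucan receptor dectin-1 of macrophages (chr6:129472780-129473029, minus strand). Nlrp1b is an inflammasome sensor (chr11:71230734-71230983, minus strand). Rnase6 is a secreted ribonuclease of myeloid cells (chr14:51128814-51129063, plus strand). H2-DMb2 helps load peptides on MHC class II (chr17:34144999-34145248, plus strand). Tie1 is a receptor kinase of endothelium (chr4:118489850-118490099, minus strand). Capitals mark matches, on either strand, to letters of PU.1 (GAGGAAGT), AP-1 (TGANTCA), C/EBP (TTGCNNAA) and interferon regulatory factors (GAAA repeated after a gap of 2 bases).
Gzmb: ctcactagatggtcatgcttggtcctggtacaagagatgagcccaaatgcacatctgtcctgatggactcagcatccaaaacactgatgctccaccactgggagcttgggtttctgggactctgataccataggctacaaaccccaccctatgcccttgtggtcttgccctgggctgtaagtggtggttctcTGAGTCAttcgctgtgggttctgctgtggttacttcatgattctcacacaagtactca
Pram1: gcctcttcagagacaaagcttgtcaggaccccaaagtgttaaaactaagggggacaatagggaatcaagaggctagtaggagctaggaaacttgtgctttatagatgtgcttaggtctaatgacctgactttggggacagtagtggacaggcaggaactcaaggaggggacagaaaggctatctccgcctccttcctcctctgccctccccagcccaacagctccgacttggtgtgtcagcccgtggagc
Clec7a: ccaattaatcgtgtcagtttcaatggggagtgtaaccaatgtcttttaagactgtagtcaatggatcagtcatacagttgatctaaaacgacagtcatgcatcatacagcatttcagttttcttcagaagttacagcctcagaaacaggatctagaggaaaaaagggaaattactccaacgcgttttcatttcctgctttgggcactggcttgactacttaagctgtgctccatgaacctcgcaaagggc
Nlrp1b: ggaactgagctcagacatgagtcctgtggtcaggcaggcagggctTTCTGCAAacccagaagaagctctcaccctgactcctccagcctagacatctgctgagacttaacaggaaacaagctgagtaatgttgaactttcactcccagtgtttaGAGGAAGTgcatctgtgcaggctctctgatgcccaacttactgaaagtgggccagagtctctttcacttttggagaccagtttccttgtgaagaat
Rnase6: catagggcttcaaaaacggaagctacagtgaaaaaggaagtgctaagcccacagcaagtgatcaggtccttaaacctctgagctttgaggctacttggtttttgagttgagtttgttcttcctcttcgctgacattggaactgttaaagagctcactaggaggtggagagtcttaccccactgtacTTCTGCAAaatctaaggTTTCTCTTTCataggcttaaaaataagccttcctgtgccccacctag
H2-DMb2: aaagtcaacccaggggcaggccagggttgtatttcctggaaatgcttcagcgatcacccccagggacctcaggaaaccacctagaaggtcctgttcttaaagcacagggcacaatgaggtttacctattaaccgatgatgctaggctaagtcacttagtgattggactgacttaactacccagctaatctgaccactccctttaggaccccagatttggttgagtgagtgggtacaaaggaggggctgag
Tie1: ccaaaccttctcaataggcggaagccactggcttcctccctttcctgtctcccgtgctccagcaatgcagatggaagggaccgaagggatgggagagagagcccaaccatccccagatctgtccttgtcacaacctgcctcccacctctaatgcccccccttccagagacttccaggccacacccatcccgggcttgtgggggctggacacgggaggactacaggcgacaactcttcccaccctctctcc

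The peaks that hold these 7 windows were chosen for their class ratios, so their values are a description. The Gzmb peak held 26 of its 30 fragments in T and NK cell-like nuclei, 73.7 times the share of all other nuclei (95% interval 25.6 to 291). The Pram1 promoter peak held 34 of 49 fragments in neutrophil-like nuclei, and the Clec7a peak 16 of 32 in macrophage and monocyte-like nuclei. In the Nlrp1b peak, 40 of 42 fragments came from leukocyte classes, and the nearest Control peak was 19767 bases away. The Rnase6 peak had 9 of 39 fragments in dendritic-like nuclei, which are 2.19% of all nuclei, and the H2-DMb2 peak had 10 of 39 in B lineage-like nuclei, which are 1.87%. The Tie1 peak had 23 of 31 in endothelial-like nuclei, 93.8-fold above the rest (40.5 to 243). The leading windows of AT2-like nuclei, cluster 3 and the unnamed cluster are not printed: Hcrtr1 had 18 of 31 fragments in AT2-like nuclei, Arhgap40 had 17 of 53 in cluster 3, and Mpp2 had 30 of 153 in the unnamed cluster. Among peaks outside chromosome 18 that hold a promoter window whole, the one with the most counts, at Ecpas, had a leukocyte ratio of 1.23 (1.00 to 1.51). The intervals here and below cover counting error only.

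Letters of 9 motifs were counted on both strands of promoter windows that lie wholly inside a peak. CKO-only peaks held 231 such windows of 211 genes. GAGGAAGT, a sequence that the myeloid and B cell factor PU.1 binds, was in 9.52% of them, against 2.48% of all 31365 windows of this length and 2.70% of the 12579 windows inside any CKO peak of at least 50 counts. Among the 164 windows in peaks high in leukocyte classes the share was 12.2%. TGTGGTTT, letters bound by RUNX factors, was in 4.33% of the windows in CKO-only peaks, 1.51% of all windows and 0.986% of windows in any peak. The interferon regulatory factor letters were in 9.52%, 2.97% and 2.29%, and the AP-1 letters in 10.4%, 6.77% and 5.04%. CCGGAAGT, a general ETS site that shares its last 6 letters with the PU.1 form, went the other way, with 1.30%, 2.92% and 6.15%. C/EBP letters were in 12.1%, 9.66% and 7.42%. Letters of TEAD factors (CATTCC) were in 10.8%, 12.5% and 10.1%, those of FOX factors (TGTTTAC) in 3.46%, 3.21% and 2.20%, and the E-box CACGTG in 5.63%, 6.02% and 8.75%. Median GC content was 50.8% in the windows of CKO-only peaks, 52.4% in all windows and 61.2% in windows of any peak, and the part of base composition in these shares was not tested.

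CKO-only peaks held the hairpins of microRNAs at 3 places, and Mir142 is shown because its peak had the most counts. A peak on chromosome 11 holds the hairpin of Mir142, a microRNA gene of blood cells. Its mature forms are shown with the seed, bases 2 to 8, in capitals.
mmu-miR-142a-5p: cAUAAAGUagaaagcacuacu
mmu-miR-142a-3p: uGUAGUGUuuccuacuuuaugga
The peak (chr11:87756341-87757100) had 179 counts in 101 nuclei. Of its 106 fragments, 43 were neutrophil-like, 30 macrophage and monocyte-like, 14 T and NK cell-like and 7 dendritic-like, while AT2-like nuclei and cluster 3 gave 3 each. Leukocyte classes were 18.8 times as rich in its fragments as the other nuclei (10.1 to 39.0). Its host transcript Mir142hg was at 44.3 CPM in CKO and 4.91 CPM in Control nuclei taken whole. Within leukocyte-like nuclei the levels were 152 and 93.8 CPM. The peak with Mir6541 also had a high leukocyte ratio, 18.2 (5.55 to 94.1) over 28 fragments. The peak with Mir3086 differed, with 31 of 52 fragments AT2-like and a leukocyte ratio of 0.727 (0.356 to 1.39).

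The fragments of the whole set came mainly from leukocyte classes. These classes gave 56.9% of the fragments in CKO-only peaks (56.7 to 57.1) and 30.4% of those in shared peaks, while they made up 33.6% of the nuclei. Neutrophil-like nuclei gave 19.4% of CKO-only fragments against 10.7% of shared ones, macrophage and monocyte-like nuclei 16.8% against 7.94%, and T and NK cell-like nuclei 13.5% against 7.92%. The dendritic-like share was 5.01% against 2.44%, and the B lineage-like share 2.22% against 1.41%. Endothelial-like nuclei gave 3.45% and 2.93%. The shares of AT2-like nuclei, cluster 3 and the unnamed cluster were lower in CKO-only peaks: 18.7% against 34.9% for AT2-like nuclei, 8.85% against 14.0% for cluster 3 and 8.85% against 14.1% for the unnamed cluster. CKO-only peaks had fewer counts than shared ones, with medians of 68 and 123, and the shares were therefore also taken at equal counts. Among peaks of 50 to 74 counts, leukocyte classes gave 61.2% of the fragments in 3585 CKO-only peaks and 27.6% in 16338 shared ones. At 200 or more counts the shares were closer, 39.5% and 31.1%. Peaks just inside the limit of the rule, with 50 or 51 counts, numbered 462 with 56.2% leukocyte fragments, and 547 peaks just outside it, with 48 or 49 counts, had 58.2%.

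**Figure D1:**
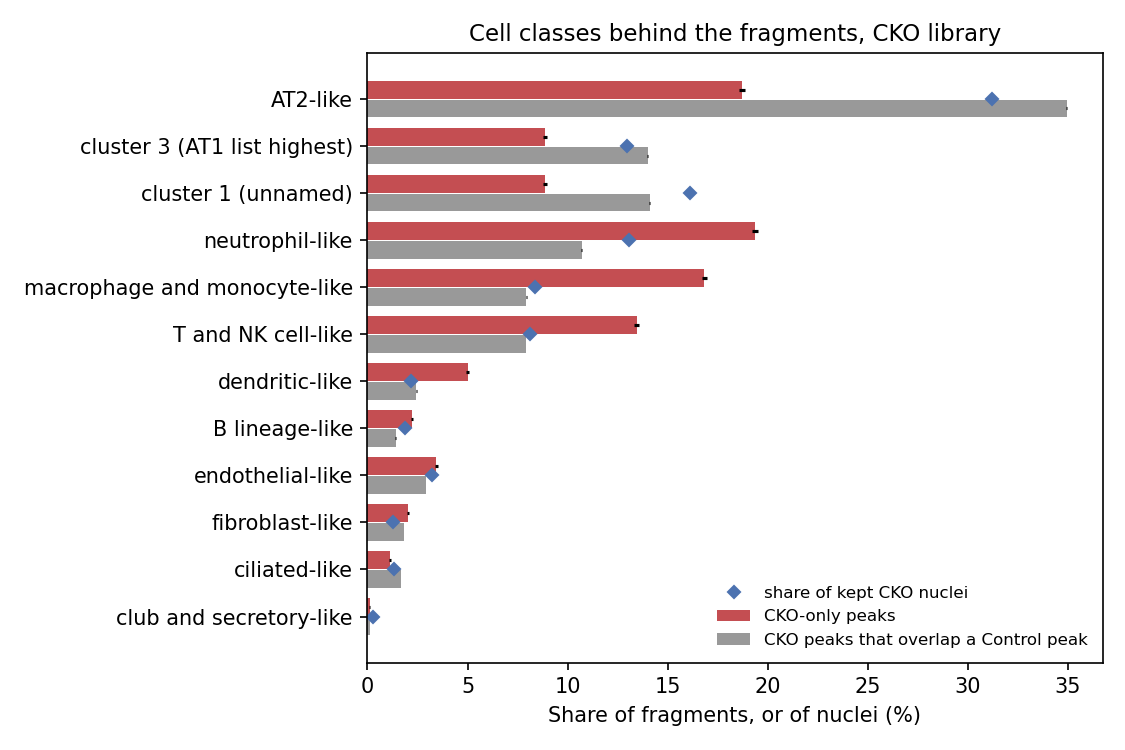
Share of fragments (%) from each RNA-defined class of nuclei in CKO-only peaks (red) and in CKO peaks that overlap a Control peak (grey), with 95% Clopper-Pearson intervals as black lines, and each class's share of the kept nuclei (diamonds). The red bar is longer than the grey one in all 5 leukocyte classes and shorter for AT2-like nuclei and clusters 3 and 1.

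Counted as peaks, the leukocyte classes again lay above background and AT2-like nuclei, cluster 3 and the unnamed cluster below, with another order among the leukocyte classes. A peak was called high in a class when the class's share of its fragments, relative to the class's share of fragments over all peaks, was at least 2 times that of all other nuclei. By this rule 3782 CKO-only peaks (63.8%) were high in the leukocyte classes together, against a background of 14% over all CKO peaks of at least 50 counts. Of single classes, macrophage and monocyte-like nuclei were high in 2789 peaks (47.0%, background 12%), dendritic-like in 2438 (41.1%, background 13.6%), neutrophil-like in 2275 (38.4%, background 9.42%), B lineage-like in 1940 (32.7%, background 14%) and T and NK cell-like in 1725 (29.1%, background 9.12%). Endothelial-like nuclei were high in 1057 (17.8%, background 10.8%). AT2-like nuclei and clusters 3 and 1 lay below background: AT2-like nuclei were high in 149 (2.51%, background 12.1%), cluster 3 in 188 (3.17%, background 6.92%) and the unnamed cluster in 261 (4.40%, background 7.55%). A call that also needed an interval above 1 moved the small classes most: 9.11% of CKO-only peaks were then high in B lineage-like nuclei (background 3.4%), 18.5% in dendritic-like (background 4.93%) and 7.51% in endothelial-like nuclei (background 4.4%). Macrophage and monocyte-like nuclei had 40.1% (background 9.81%), neutrophil-like 33.6% (background 8.12%) and T and NK cell-like 23.9% (background 7.11%). AT2-like nuclei had 2.21% (background 11.6%), cluster 3 1.87% (background 5.09%), the unnamed cluster 3.10% (background 6.08%) and the leukocyte classes pooled 63% (background 13.8%). Of the 130 dendritic-like nuclei, 81 fell in the macrophage and monocyte-like cluster when both libraries were clustered together. Many peaks were high in several leukocyte classes: 1096 peaks were high in 1 leukocyte class, 1478 in 2, 1381 in 3, 658 in 4 and 68 in all 5, and 1247 in none. As shares these were 18.5%, 24.9%, 23.3%, 11.1%, 1.15% and 21.0%, where all peaks had 18.1%, 8.31%, 4.68%, 1.96%, 0.275% and 66.6%.

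**Figure D2:**
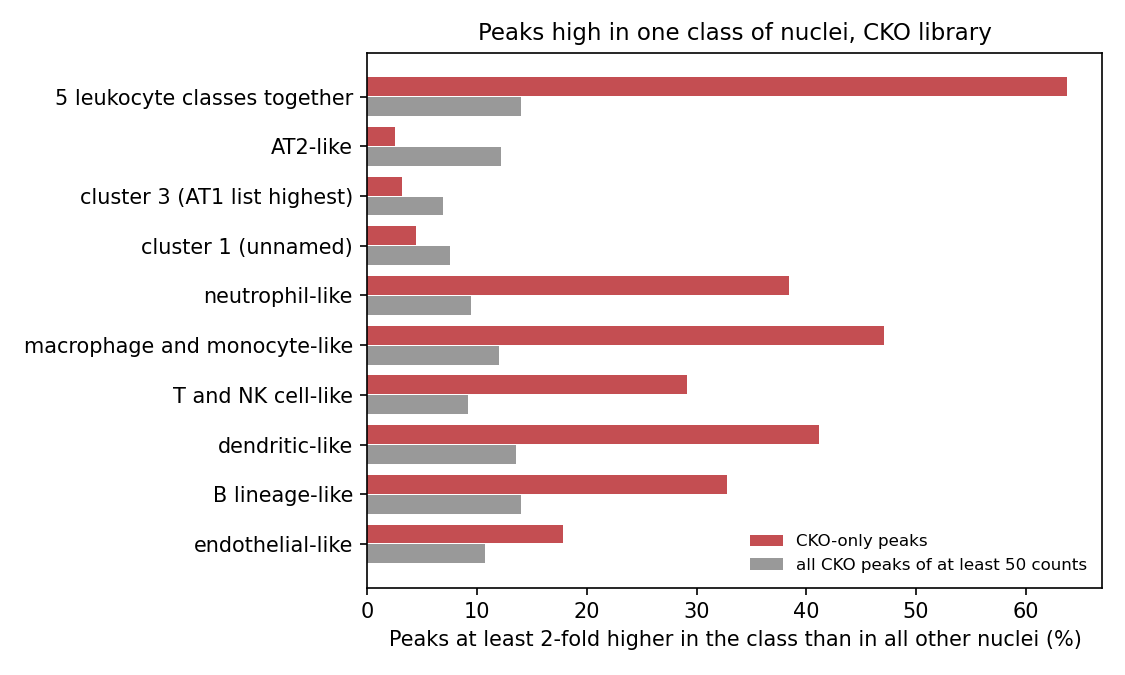
Share (%) of CKO-only peaks (red) and of all CKO peaks of at least 50 counts (grey) that were at least 2-fold higher in a class than in all other nuclei. Each leukocyte bar and the endothelial bar is longer in red, and the bars of AT2-like nuclei and clusters 3 and 1 are longer in grey.

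The leading peaks of single classes are given as examples, not as typical of the set. Among T and NK cell-like nuclei the leading peak, nearest to the start of Gm27166, had 39 of 42 fragments in the class, and a peak in the region of Cblb, a ubiquitin ligase that restrains T cell activation, had 28 of 31. A peak nearest to Dtd1 had 32 of 35 fragments in neutrophil-like nuclei, and one nearest to Cnih3 had 36 of 43. Macrophage and monocyte-like nuclei held 25 of 28 fragments of a peak nearest to Epha4 and 28 of 33 of one nearest to Fcrla, which lies beside the Fc gamma receptor genes. For endothelial-like nuclei the leading peak, nearest to Tax1bp1, had 24 of 28. A peak 65400 bases from the start of Kit, the stem cell factor receptor, divided its 27 fragments into 15 dendritic-like and 8 endothelial-like. The leading peaks of AT2-like nuclei and clusters 3 and 1 had larger shares of fragments outside the class than the T and NK cell-like, neutrophil-like, macrophage and monocyte-like and endothelial-like ones above. AT2-like nuclei held 37 of the 54 fragments of a peak near Ptges2, which encodes a prostaglandin E synthase, cluster 3 held 14 of 29 near Sfxn3, and the unnamed cluster 24 of 45 near Rab31. Some leading peaks of the small leukocyte classes were mixed as well. One nearest to 2010106C02Rik had a count in 9 of 111 B lineage-like and 10 of 481 T and NK cell-like nuclei. One nearest to Slc29a3 had a count in 12 of 130 dendritic-like and 10 of 497 macrophage and monocyte-like nuclei. These peaks were chosen for their class ratio, so the values describe them and test nothing.

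**Figure D3:**
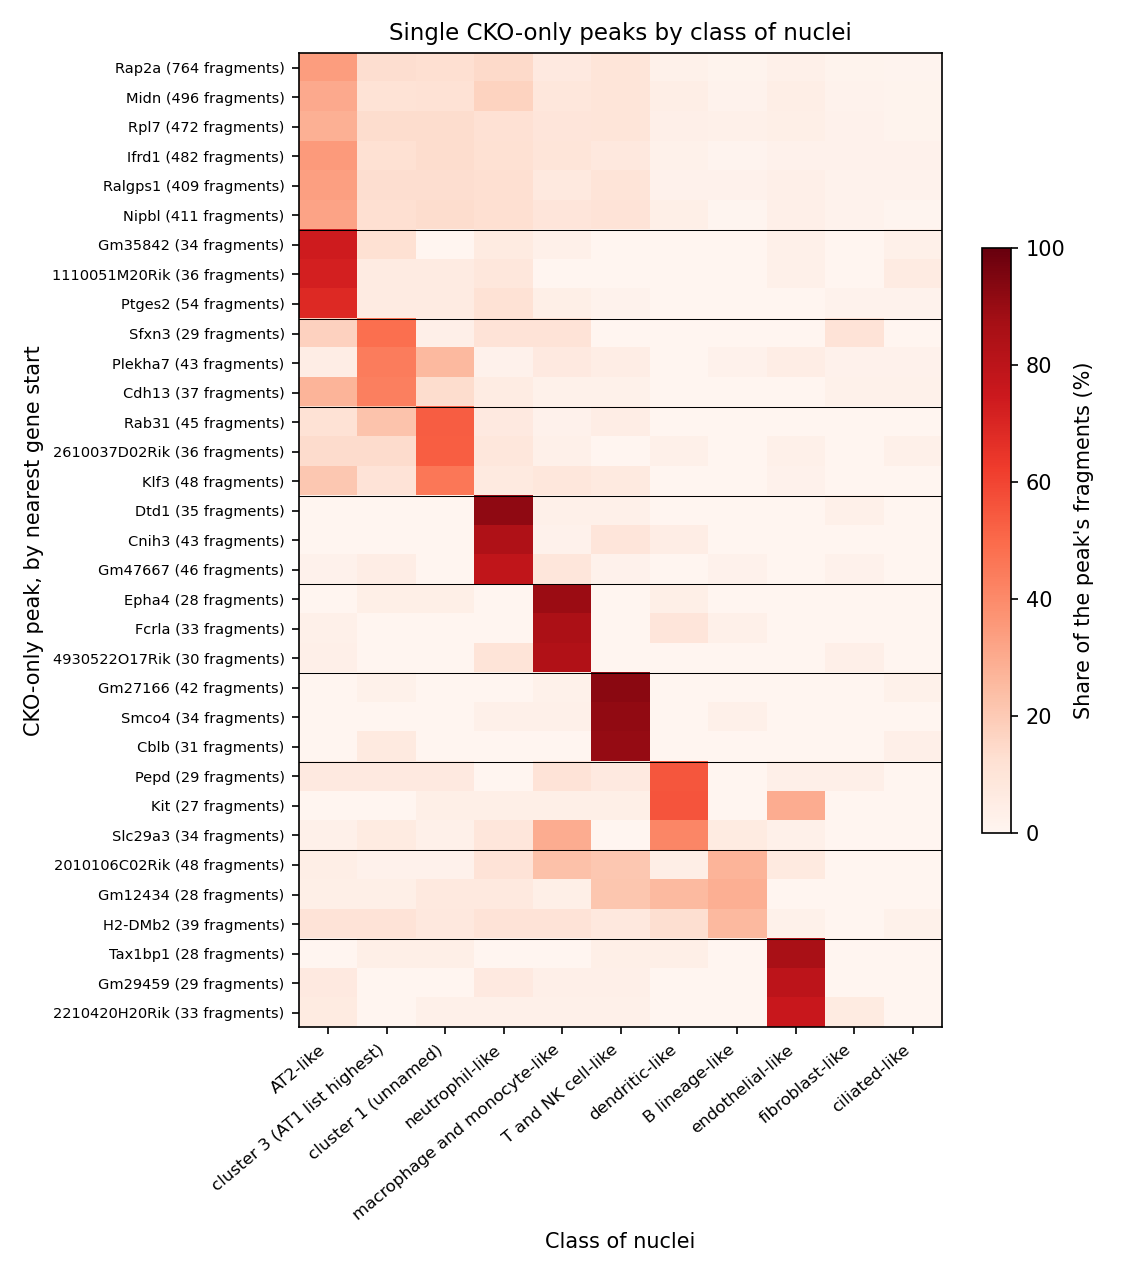
Share (%) of each peak's fragments by class of nuclei, for the 6 CKO-only peaks with the most counts (top block) and the 3 leading peaks of each class (blocks below), named by the nearest gene start. The top block is spread over all large classes, and the blocks of T and NK cell-like, neutrophil-like, macrophage and monocyte-like and endothelial-like nuclei are dark in 1 column.

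CKO-only peaks close to a Control peak differed in makeup from those far from one. Of the 5928, 1304 (22.0%) lay within 500 bases of a Control peak. In the 301 peaks within 100 bases, leukocyte classes gave 40.02% of fragments (39.4 to 40.6), AT2-like nuclei gave 29.6%, and 35.5% of the peaks lay within 1000 bases of a gene start. In the 608 peaks more than 10000 bases from a Control peak, leukocyte classes gave 74.3% (73.7 to 74.9), AT2-like nuclei 8.49%, and 20.2% of the peaks were near a start. Leukocyte-high peaks were 33.2% of the nearest group and 82.4% of the farthest. Median counts were 94 and 61 and median widths 561 and 888.5 bases, so the peaks closest to a Control peak had more counts but were narrower. The number of Control nuclei of the leukocyte classes differs as given above, and its part in where Control peaks were called was not tested. Class makeup, depth and genotype cannot be told apart with 1 library per genotype.

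**Figure D4:**
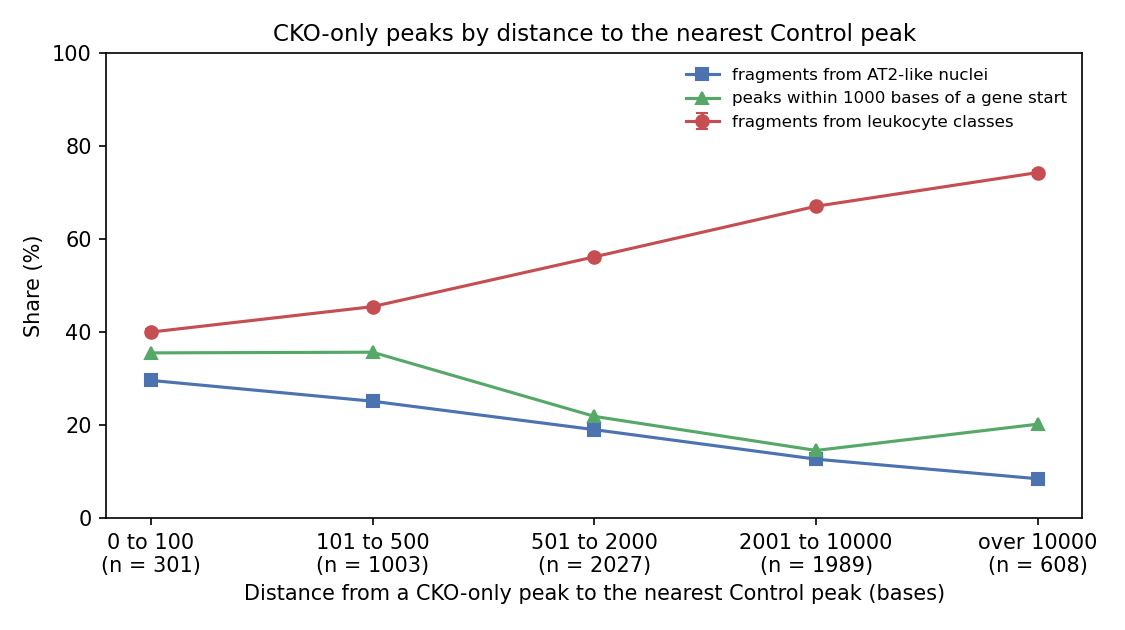
CKO-only peaks grouped by distance to the nearest Control peak (bases, n under each group), with the share (%) of fragments from leukocyte classes (circles, 95% intervals smaller than the symbols), the share from AT2-like nuclei (squares) and the share of peaks within 1000 bases of a gene start (triangles). The leukocyte share goes from 40.02% in the nearest group to 74.3% in the farthest, and the AT2-like share from 29.6% to 8.49%.

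Several of the CKO-only peaks with the most counts had leukocyte ratios near 1. The peak with the most counts, 1178, lay at the start of Rap2a, a Ras-related GTPase, only 45 bases from a Control peak. Of its 764 fragments, 262 were AT2-like, 111 neutrophil-like and 101 of cluster 3, and its leukocyte ratio was 1.17 (1.00 to 1.35). Midn (829 counts), Ifrd1 (796), Nipbl (710) and Tagln2 (607) were also within 122 bases of a Control peak, with leukocyte ratios between 0.925 and 1.51. Babam2, a subunit gene of a deubiquitinase complex, was higher at 2.56 (2.10 to 3.13), with 221 of 409 fragments from leukocyte classes. Of the 215 peaks with at least 200 counts, 66.0% lay within 500 bases of a Control peak, and 27.0% were leukocyte-high, against 4.31% of shared peaks with as many counts.

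A small group of large peaks had no Control peak nearby. With at least 200 counts and no Control peak within 2000 bases there were 17, a limit chosen after the values were seen, and 10 of these lay within 1000 bases of a gene start. The start of the ribosomal protein gene Rpl7 had 812 counts, 6372 bases from the nearest Control peak, and the adjoining start of Rdh10, a retinol dehydrogenase gene, had 567. Ralgps1, encoding a guanine nucleotide exchange factor, had 750, and Dtnbp1, a gene of lysosome-related organelles, had 633. These 4 had leukocyte ratios of 0.852 to 1.27, and all 4 genes gave RNA in the Control library. Rpl7 RNA was at 190 CPM in CKO and 93.7 CPM in Control nuclei, Ralgps1 at 84.5 in both, Dtnbp1 at 71.1 and 64.8, and Rdh10 at 41.7 and 37.8. The start of Bmp3, a bone morphogenetic protein gene, had 226 counts and 17 of 132 fragments from leukocyte classes. By contrast, a peak nearest to Picalm, a clathrin adaptor gene, had 99 of 107 fragments from leukocyte classes, and one near Nfkbia, the NF-kB inhibitor, had 111 of 137.

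Gene starts were less common among CKO-only than among shared peaks taken whole, but not at equal counts. Of the 5928, 1322 (22.3%) lay within 1000 bases of a start, against 30.7% of shared peaks, and median distances were 8392.5 and 7969 bases. Starts are the intervals the files give for each gene, which span more than 1000 bases for 16.2% of genes. A peak said here to be at a start overlaps or touches that interval and need not lie at the main promoter. Among peaks of 50 to 74 counts, 17.7% of CKO-only and 15.4% of shared peaks were near a start, and at 200 or more counts 60.9% and 58.2%. The peaks near starts had 49.1% leukocyte fragments and the others 60.1%.

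The nearest starts belonged to 4122 genes of the 20127 that are nearest to any CKO peak of at least 50 counts (20.5%). Of these, 3004 had 1 CKO-only peak and 71 had at least 5. Foxp1, a forkhead factor of many lineages, had the most, 14 of 61 peaks, followed by Fgfr2, the receptor of alveolar FGF signals, with 13 of 166. Their CKO-only peaks were mixed, with 44.8% and 39.96% leukocyte fragments. Prex1, a Rac exchange factor of neutrophils, had 9 peaks, all leukocyte-high. Of their fragments, 32.1% were T and NK cell-like, 20.9% macrophage and monocyte-like and 15.1% neutrophil-like. Prex1 RNA was 160 CPM in leukocyte classes and 4.04 CPM in alveolar or unnamed nuclei of the CKO library. Elmo1, a partner in engulfment and cell migration, had 7 with 82.5% leukocyte fragments, and 875 against 31.6 CPM. Chd7, a chromatin remodeller, had 8 with 86.0%, and 355 against 147 CPM. Zfp36l2, an mRNA decay factor, had 10 with 56.6%, and 140 against 24.0 CPM.

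Genes of leukocyte receptors and signalling were near a small part of the peaks. Of 22 T cell receptor signalling genes that are nearest to any CKO peak, 16 were nearest to a CKO-only peak, against 20.5% of all genes, and 26 of their 27 peaks were leukocyte-high. CKO-only peaks were 25.5% of the 106 peaks of this list, where they are 7.87% of all peaks. At Lat, the adaptor that links the T cell receptor to its downstream enzymes, 30 of 47 fragments were T and NK cell-like, and at Cd3e, a chain of the receptor complex, 25 of 30 were. A peak of Ubash3a, a phosphatase that dampens the receptor, had 26 of 48. Other peaks of the list were less confined to this class. A peak of Lcp2 had a count in 10 of 481 T and NK cell-like, 17 of 497 macrophage and monocyte-like and 6 of 130 dendritic-like nuclei. One of Prkcq had a count in 21 of 481 T and NK cell-like and 8 of 190 endothelial-like nuclei. Of the 27 peaks, 23 were high in T and NK cell-like, 15 in B lineage-like and 12 in dendritic-like nuclei. Of 13 B cell receptor signalling genes, 7 were nearest to 22 peaks (26.8% of the list's 82), all leukocyte-high. Of these, 19 were high in neutrophil-like, 15 in dendritic-like, 14 in macrophage and monocyte-like and 12 in B lineage-like nuclei. The kinase gene Syk had 20 of 46 fragments in macrophage and monocyte-like nuclei. Prkcb, protein kinase C beta, had 26 of 47 in neutrophil-like nuclei, and its peak had a count in 5 of 111 B lineage-like and 26 of 776 neutrophil-like nuclei. None of the 8 B lineage marker genes that are nearest to a peak was nearest to a CKO-only one. The counts describe the lists and were not tested against others. Of all CKO-only peaks 63.8% were leukocyte-high. The leukocyte-high share of shared peaks near the same genes was not taken, here or for the lists below.

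Chemokine and cytokine receptor genes were nearest to 41 peaks (27.3% of 150) at 19 of 27 genes, 38 of them leukocyte-high. The 3 with the most counts were nearest to Ccr1, a chemokine receptor of myeloid cells, 27766 to 40010 bases from its start, with 255, 179 and 124 counts and with 122 of 146, 86 of 98 and 62 of 69 fragments from leukocyte classes. Ccr1 RNA was 26.6 CPM in CKO and 0.670 CPM in Control nuclei taken whole. At the start of Il2rb, a chain of the interleukin 2 receptor, 49 of 64 fragments were T and NK cell-like. At the start of Cxcr2, the neutrophil chemokine receptor, 19 of 33 were neutrophil-like. Phagocyte receptor genes had 23 peaks (26.1% of 88) at 11 of 20 genes, 20 leukocyte-high. Clec4e, the mincle receptor for damaged cells, had 42 neutrophil-like and 24 macrophage and monocyte-like fragments of 81 at its start. The start of Cd14, the endotoxin co-receptor, was mixed, with 45 neutrophil-like, 39 macrophage and monocyte-like and 31 AT2-like fragments of 181.

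Lineage transcription factors had 19 peaks (11.6% of 164) at 11 of 29 genes, 15 leukocyte-high. Runx1, a factor of blood cells, had 55 of 62 fragments from leukocyte classes in its start interval, and Zeb2, a factor of myeloid and NK cells, 69 of 104. Spi1, which encodes PU.1, had 37 of 45. A peak in the start interval of Bach2, a factor of lymphocytes, had 21 of 54 fragments in T and NK cell-like nuclei. Bach2 RNA was 381 CPM in alveolar or unnamed nuclei and 410 CPM in leukocyte-like ones of the CKO library.

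Prostaglandin genes, the pathway of the floxed receptor, had 9 CKO-only peaks at 8 of 21 genes, 8 of them leukocyte-high. They were 8.11% of the list's 111 peaks, near the 7.87% of all peaks that are CKO-only. A peak 3149 bases from the start of Ptgir (chr7:16909664-16910558), 2936 bases from the nearest Control peak, had 65 counts. Of its 37 fragments, 13 were macrophage and monocyte-like, 11 neutrophil-like and 1 AT2-like, and leukocyte classes were 14.0 times as rich as other nuclei (5.40 to 45.9). A peak in the start interval of Pla2g4a, the phospholipase that frees arachidonic acid, had 46 of 50 fragments from leukocyte classes. A peak of Ptges, the inducible prostaglandin E synthase, had 34 of 50. The peak of Ptges2 named above was the exception, with 9 of 54.

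AP-1 and p53 target genes, which the title names as a pathway, had CKO-only peaks of mixed makeup. AP-1 subunit genes had 10 peaks (13.7% of 73) at 6 of 11 genes, 5 leukocyte-high. A peak 3252 bases from the start of Jun had 224 counts, with 45 AT2-like, 13 cluster 3 and 40 leukocyte-class fragments of 122, a leukocyte ratio of 1.06 (0.710 to 1.57). Jun RNA was 338 CPM in CKO and 787 CPM in Control alveolar or unnamed nuclei. A peak 3662 bases from Fos had 215 counts and a ratio of 1.51 (1.02 to 2.20), with Fos RNA at 378 and 392 CPM in the same nuclei. Batf, an AP-1 subunit of leukocytes, had 34 of 43 fragments from leukocyte classes. The p53 targets had 9 peaks (7.14% of 126) at 8 of 26 genes, 3 leukocyte-high. Of the 9, 5 were high in macrophage and monocyte-like nuclei, 3 in neutrophil-like nuclei and 1 in the unnamed cluster. A peak of Gadd45a was spread, with a count in 52 of 1853 AT2-like, 26 of 958 unnamed and 23 of 776 neutrophil-like nuclei. A peak 2137 bases from the start of Cdkn1a, the p21 cell cycle inhibitor, had 19 of 53 fragments in the unnamed cluster, 3.46 times the other nuclei (1.86 to 6.24). Cdkn1a RNA was 324 CPM in CKO and 269 CPM in Control alveolar or unnamed nuclei. The cluster mix of alveolar or unnamed nuclei differed between the libraries, and its part in the Jun, Fos and Cdkn1a levels was not tested.

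Epithelial marker genes also had CKO-only peaks, few of them leukocyte-high. AT2 markers had 7 peaks (6.86% of 102) at 5 of 15 genes and AT1 markers 10 (7.94% of 126) at 6 of 15, with 1 and 2 leukocyte-high. Few were high in the matching epithelial class either: 1 of the 7 AT2 marker peaks was high in AT2-like nuclei, and 0 of the 10 AT1 marker peaks in cluster 3. In the start interval of Abca3, the surfactant lipid pump, 26 of 51 fragments of a peak were AT2-like and the nearest Control peak was 372 bases away. A peak near Emp2, an AT1 membrane protein gene, had 85 fragments, of which 39 were AT2-like and 17 of cluster 3, 447 bases from a Control peak. Others were spread or led elsewhere. A peak of the AT2 marker Muc1 had a count in 133 of 1853 AT2-like, 53 of 771 cluster 3 and 27 of 481 T and NK cell-like nuclei. One of the AT1 marker Pdpn had a count in 5 of 771 cluster 3 and 14 of 776 neutrophil-like nuclei. A peak in the start interval of Itgb6, an integrin chain of injured epithelium, had 22 AT2-like and 10 unnamed fragments of 49. It lay 6259 bases from a Control peak. A second CKO-only peak of Itgb6 had a count in 19 of 481 T and NK cell-like, 0 of 1853 AT2-like and 0 of 958 unnamed nuclei. Itgb6 RNA was 276 CPM in CKO and 120 CPM in Control alveolar or unnamed nuclei. These nuclei held 1176 transitional and 202 unnamed ones in CKO, and 566 and 3249 in Control. The part of this cluster mix in the RNA levels was not tested. Over the 560 peaks high in AT2-like nuclei, cluster 3 or the unnamed cluster (9.45%, where all peaks have 24.9%), 32.5% lay within 500 bases of a Control peak, against 14.8% of the leukocyte-high ones.

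Endothelial markers had 11 peaks (19.0% of 58) at 8 of 12 genes. One of Erg, an endothelial ETS factor, had 28 of 41 fragments in endothelial-like nuclei, while a second, farther from the start, had 24 of 39 in neutrophil-like nuclei. The nearest gene therefore did not always match the class that carried the peak. Over all CKO-only peaks whose nearest gene had enough RNA, the class with the highest chromatin ratio was also the class with the highest RNA level in 24.3%, against 20.5% of all peaks.

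RNA of the nearest genes leaned the same way as the chromatin. Of 2783 nearest genes with at least 50 UMIs, 698 (25.1%) had RNA at least 2-fold higher in leukocyte classes than in alveolar or unnamed nuclei of the CKO library, against a background of 12.6% of the genes nearest to all peaks. For RNA at least 2-fold lower the figures were 187 genes (6.72%) and 7.14%. Next to leukocyte-high CKO-only peaks, 36.7% of genes were higher, and next to the other CKO-only peaks 8.61%. Shared peaks that were leukocyte-high had 34.0%, close to the CKO-only ones.

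**Figure D5:**
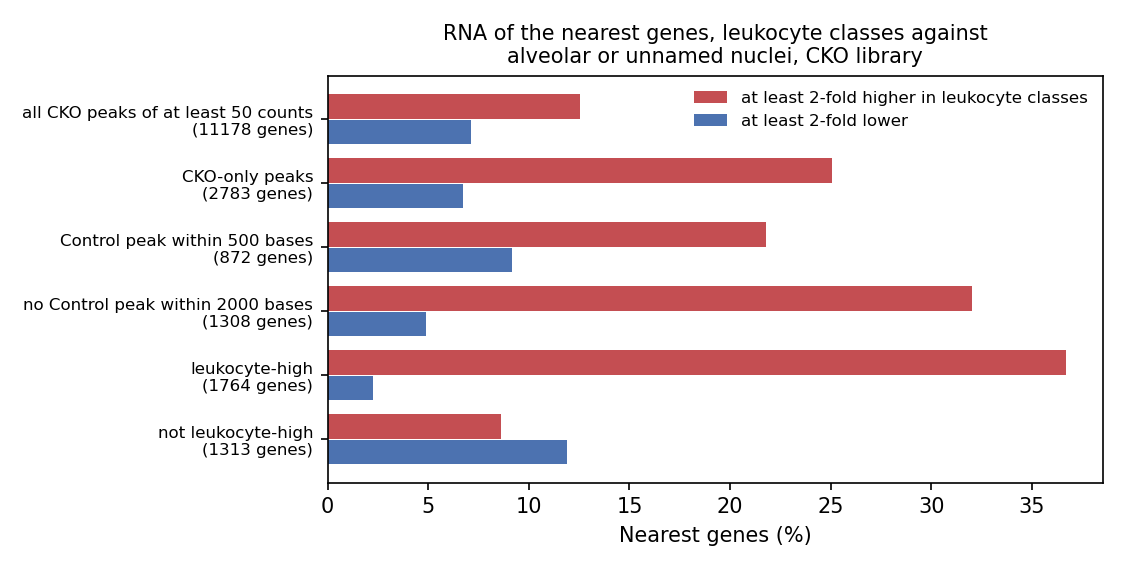
Share (%) of nearest genes whose RNA was at least 2-fold higher (red) or lower (blue) in leukocyte classes than in alveolar or unnamed nuclei of the CKO library, for all CKO peaks, CKO-only peaks and groups of CKO-only peaks, with the number of genes under each name. The red bar is longest for leukocyte-high peaks (36.7%) and shortest for the peaks that were not leukocyte-high (8.61%).

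Between the libraries, nearest genes of CKO-only peaks differed little from the genes of all peaks within leukocyte-like or within alveolar or unnamed nuclei. Over all nuclei, 927 of 2989 (31.0%) had RNA at least 2-fold higher in CKO than in Control, with a background of 27.1%, and 71 (2.38%) were lower, with a background of 2.5%. Within alveolar or unnamed nuclei, 461 of 2665 (17.3%) were higher, with a background of 18.9%, and 80 (3.00%) were lower, with a background of 2.75%. The median log2 ratio there was 0.44 for genes of CKO-only peaks and 0.50 for genes of all peaks. Within leukocyte-like nuclei, 539 of 2405 (22.4%) were higher, with a background of 23.6%, and 46 (1.91%) were lower, with a background of 1.97%. The makeup of both groups differed between the libraries, so the class of nuclei was not fixed. In clusters without a name were 3249 of 4599 Control nuclei and 202 of 5937 CKO nuclei. They fell in a joint cluster of 1957 nuclei with a median of 3285 UMIs and in a shallow one of 1494 nuclei with a median of 848. Leading genes of the shallow one included AY036118, Gm42418, Cmss1 and Lars2, and its part in the RNA levels of alveolar or unnamed nuclei was not tested. Neutrophil-like nuclei were 797 of 2018 leukocyte-like CKO nuclei and 3 of 204 leukocyte-like Control nuclei.

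The same rule turned around gave a different set. In the Control library, 992 of 43191 autosomal peaks with at least 50 counts (2.30%) overlapped no CKO peak. The minimum of 50 was the same in both libraries, although their kept peak counts differed as given above. With no minimum, 17059 of 112909 autosomal Control peaks and 26774 of 122659 autosomal CKO peaks overlapped no peak of the other library. Leukocyte-like nuclei gave 3.94% of the fragments in the 992 peaks (3.786 to 4.102) and 4.85% of those in Control peaks shared with CKO. With the same joint clusters, the values in the CKO library were 57.3% and 30.9%. Of the Control-only peaks, 42.2% lay within 500 bases of a CKO peak and 42.6% within 1000 bases of a gene start, against 22.0% and 22.3% of the CKO-only peaks.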

How the data were processed

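Each library holds 1 matrix of RNA and peak values for the same barcodes, deposited by the authors as raw counts with no normalisation and made with Cell Ranger ARC 2.0.1, per the file headers. Peaks were called separately in each library, so the Control matrix has no counts at the CKO-only peaks. Seurat 4.1.0 and Signac 1.6.0 are named in the submitters' processing notes with no step. Those notes name GRCm39 and GRCm38. In the files, 72.0% of 25183 gene starts matched by symbol lay within 100 bases of an end of the RefSeq GRCm38.p6 gene, so positions are read as GRCm38, counted from 1.

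Of the nonzero CKO peak counts 84.6% were even, since a fragment mostly gives 2 counts, so shares and ratios use fragments (counts divided by 2, rounded up), a change from the plan, which used counts. CKO nuclei were clustered alone on RNA in scanpy 1.11.5 (2000 variable genes, 30 components, 15 neighbours, Leiden resolution 0.6). Clusters were named from 16 marker lists by score (at least 0.3, 3 detected markers). Both libraries were clustered together for comparisons between them. Doublets were not removed; Scrublet, an alternative, called 850 CKO nuclei. Shares carry Clopper-Pearson and ratios exact conditional binomial 95% intervals. Such intervals cover counting error only, and no p-value is given.

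Members, marker lists and 8 gene lists were chosen with earlier results of these data known. Named are the 12 members with most counts, the 3 leading members of each class with at least 100 nuclei, the 10 genes nearest to most members and up to 4 members per list. Promoter and microRNA sequences, the 17 large peaks, and Ptgir, Spi1, Cd3e and Cxcr2 were chosen after values were seen. A genome sequence was not used here.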

Additional observations from a re-analysis of the deposited data

How the results depend on the processing

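CKO-only peaks lay above all peaks in 11 of 11 alternatives for leukocyte fragments, 14 of 14 for leukocyte-high peaks and 13 of 13 for nearest-gene RNA. Without the limit on mitochondrial RNA, 16443 peaks met the rule, with 49% leukocyte fragments, 52.3% leukocyte-high peaks, 17.4% near a start and 19.96% of nearest genes higher in leukocyte classes. A minimum of 20 counts gave 21970 peaks with 53%, 50.3%, 16.4% and 18.4%. A minimum of 100 gave 1125 with 49% leukocyte fragments, 50.8% leukocyte-high and 37.1% near a start. Without peaks within 500 bases of a Control peak, the 4 values were 62.6%, 69.7%, 18.5% and 27.3%. Leukocyte fragments were 54.8% with stricter limits on nuclei, 55.8% when under 50% of a peak could be covered, 56.4% at resolution 0.3, 57.3% with joint clusters and 57.9% with transposition counts. Without Scrublet doublets the share was 52.6%, leukocyte-high peaks were 65.5% and nearest genes 28.0%. Leukocyte-high peaks were 62.0% by rate per nucleus and 53.4% at 4-fold, and nearest genes 21.5% among genes with at least 100 UMIs. The cause was not tested. The use of transposition counts, and a call that needs an interval above 1, were added after seeing the data.

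No paired analysis was possible because each genotype has 1 library. With a median of 37 fragments per CKO-only peak, class shares of single peaks are imprecise, and for classes near 100 nuclei a call can rest on a few fragments.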
